A study of Mus musculus with 18 samples.

Results

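Fibroblast growth factors (FGFs) and their receptors were followed in mouse primary preadipocytes, the precursors of fat cells, of epididymal white adipose tissue. The 9 genes were taken by symbol, 5 ligands (Fgf2, Fgf7, Fgf9, Fgf10, Fgf18) and the 4 receptor tyrosine kinases (Fgfr1, Fgfr2, Fgfr3, Fgfr4), out of 17267 gene symbols in the 2 deposited count tables. All 9 were listed in the table of undifferentiated cells, and 8 in the table of differentiated cells, which did not list Fgfr4.

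FGFs are secreted proteins that bind a receptor on the cell surface together with heparan sulfate, a sugar chain carried by syndecans, glypicans and matrix proteins. The bound receptor phosphorylates itself and the adaptor Frs2, which leads through Ras and ERK kinases to transcription factors of the Etv family and to feedback inhibitors such as Spry and Dusp6. The receptors differ in tissue and in splicing: alternative exons of the third Ig-like domain set which ligands bind, with the IIIb form of Fgfr2 serving Fgf7 and Fgf10 and typical of epithelia, and the IIIc form typical of mesenchyme. In adipose tissue, Fgf10 made by mesenchymal cells is known for its role in the development of fat, and Fgf2 and Fgf1 act on the growth and differentiation of preadipocytes.

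All cells came from wild-type mice. In the control-diet (CD) arm, undifferentiated cells were mock treated, given TGF-b1, a cytokine of matrix production, or given TGF-b1 with SB431542, which blocks the kinase of the type I TGF-b receptor (called the inhibitor group where the sense is clear). The fourth group was mock-treated, undifferentiated cells from mice fed a high-fat diet (HFD). The other 2 groups were sorted with an antibody to CD49e, the integrin alpha 5 chain encoded by Itga5, into Itga5-High and Itga5-Low cells and then put through adipogenic differentiation in culture. Each of the 6 groups had 3 libraries. The labels give neither doses, times, the ages of the mice nor the diet behind the sorted cells. They do not say whether replicates came from separate animals or cultures, so the spread behind each p-value is that between libraries, which may be technical.

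Depth ranged from 11154449 to 17288608 counts per library. Levels are in CPM (a gene's counts per 1000000 counts of the library) scaled by TMM factors within a table, and the 2 tables were not tested against each other. Replicates lay close to counting noise, with a chi-square per degree of freedom of 1.15 to 1.25 between libraries of a group. The check genes followed the labels: Ccn2, a TGF-b target, had 1179 ± 4.45 CPM in CD mock, was at 3970 ± 9.83 after TGF-b1 and at 495 ± 4.06 in the inhibitor group (SD, n = 3). Itga5 had 472 ± 8.82 CPM in Itga5-High and 329 ± 4.68 in Itga5-Low cells. All 8 fixed preadipocyte markers were detected in every group, and their summed level lay between 1908 and 1921 CPM in CD mock, 1275 and 1300 after TGF-b1, 2162 and 2173 with the inhibitor, and 1826 and 1852 in HFD mock. Markers of other cells were present too: the summed level of 10 mesothelial markers ranged over 2484 to 2523 CPM in CD mock, over 723.9 to 739.1 CPM after TGF-b1, over 2169 to 2177 CPM with the inhibitor and over 654.2 to 667.1 CPM in HFD mock. That of 9 endothelial markers was 389.5 to 408.0, 177.4 to 181.3, 858.4 to 876.8 and 125.0 to 132.8 CPM in the same order, and that of 14 macrophage markers was 556.9 to 571.5, 622.9 to 639.8, 1103 to 1124 and 2633 to 2664 CPM. The sum of 8 pericyte and smooth muscle markers lay between 581.4 and 596.3 CPM in CD mock, 707.3 and 709.8 after TGF-b1, 866.3 and 892.7 with the inhibitor, and 560.1 and 577.6 in HFD mock. In these bulk cultures, fewer cells of a type and less RNA per cell cannot be told apart.

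The sequence that separates the forms of Fgfr1 bears on the results for that receptor. The coding exon that encodes the first Ig-like domain of Fgfr1 lies at chr8:25555508-25555774 on the plus strand of GRCm38 (mm10) and has 267 bases. One of the 3 Fgfr1 transcripts in the files leaves it out, which shortens the transcript model from 5025 to 4758 bases. Receptors with and without this domain are known as the alpha and beta forms. The lines below give the junction of the long form, with the exon in capitals and 10 bases of each neighbouring exon in lower case, and the junction of the short form. Both were read from the GRCm38 genome by the GENCODE annotation.
Fgfr1 long form: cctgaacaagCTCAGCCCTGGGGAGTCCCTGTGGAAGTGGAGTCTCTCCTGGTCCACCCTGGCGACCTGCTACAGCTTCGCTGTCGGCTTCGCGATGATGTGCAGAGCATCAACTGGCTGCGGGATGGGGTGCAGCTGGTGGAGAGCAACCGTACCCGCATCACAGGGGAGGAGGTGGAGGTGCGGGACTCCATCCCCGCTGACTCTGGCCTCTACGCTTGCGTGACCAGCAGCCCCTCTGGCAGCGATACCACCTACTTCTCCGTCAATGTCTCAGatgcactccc
Fgfr1 short form: cctgaacaagatgcactccc

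Fgf2 and Fgf7 moved in opposite directions under TGF-b1 and under the high-fat diet (values below), so the 250 bases before their start sites are shown, from RefSeq on GRCm38.p6. Capitals mark CAGAC, the core of the Smad-binding element, or its complement GTCTG. The Fgf2 promoter lies at chr3:37348403-37348652 and the Fgf7 promoter at chr2:126034408-126034657, both on the plus strand.
Fgf2 promoter: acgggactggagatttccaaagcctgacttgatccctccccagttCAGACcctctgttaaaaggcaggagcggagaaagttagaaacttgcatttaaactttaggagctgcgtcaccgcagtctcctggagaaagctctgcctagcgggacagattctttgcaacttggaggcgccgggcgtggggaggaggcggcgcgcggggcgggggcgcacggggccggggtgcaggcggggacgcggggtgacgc
Fgf7 promoter: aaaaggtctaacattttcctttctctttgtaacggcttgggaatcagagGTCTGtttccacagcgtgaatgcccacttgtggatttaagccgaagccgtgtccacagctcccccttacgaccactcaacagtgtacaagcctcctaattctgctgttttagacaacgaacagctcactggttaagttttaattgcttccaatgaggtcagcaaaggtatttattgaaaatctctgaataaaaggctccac

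Each of these promoters held 1 match, starting at -205 in Fgf2 and at -201 in Fgf7 counted from the start site. On both strands, 42.2% of 32851 RefSeq promoters of the same length held CAGAC. Of the 8 members with a promoter in the table, Fgf18 held 2 matches, Fgf9 held 1, and Fgf10, Fgfr2, Fgfr3 and Fgfr4 held 0. A further motif, the AP-1 element TGANTCA, was in none of the members' promoters and in 6.75% of all. The 2 promoters differed in composition: that of Fgf2 had 20 CG pairs and that of Fgf7 had 6, where the median of all promoters was 6. A match describes letters and says nothing of binding.

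TGF-b1 raised 3 and lowered 5 of the 8 tested members in control-diet cells, Fgf7, Fgf10, Fgfr2, Fgfr3 and Fgf9 falling between 2.42-fold and 3.33-fold while Fgf2 rose 1.68-fold and Fgf18 and Fgfr1 rose less. Of all genes tested in that comparison, 67.6% were called, 33.4% higher and 34.2% lower, and 69.4% had no overlap of libraries. With SB431542 added to TGF-b1, all 8 tested members were called in the other direction against TGF-b1 alone, 5 higher and 3 lower, where 79.7% of all genes were called (41.4% higher, 38.3% lower) and 80.2% did not overlap. The 2 comparisons share the TGF-b1 libraries, so opposite signs are partly built in. Against mock, cells with both agents had 3 members higher, 4 lower and Fgf9 not called, where 61.0% of genes were called (30.6% higher, 30.4% lower) and 64.0% did not overlap. HFD cells had Fgf7 higher and 7 members lower than CD cells, where 53.7% of genes were called (27.1% higher, 26.6% lower) and 58.0% did not overlap. Both of these comparisons use the CD mock libraries that also stand in the first. Among differentiated cells, Itga5-High had 2 members higher, 4 lower and Fgf2 not called against Itga5-Low, where 53.5% of genes were called (27.0% higher, 26.5% lower) and 58.2% did not overlap. No tested member had overlapping libraries in any of the 5 comparisons. Fgfr4 was not tested in either fit, and Fgf9 was not tested in differentiated cells, because their counts were too low.

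**Figure D1:**
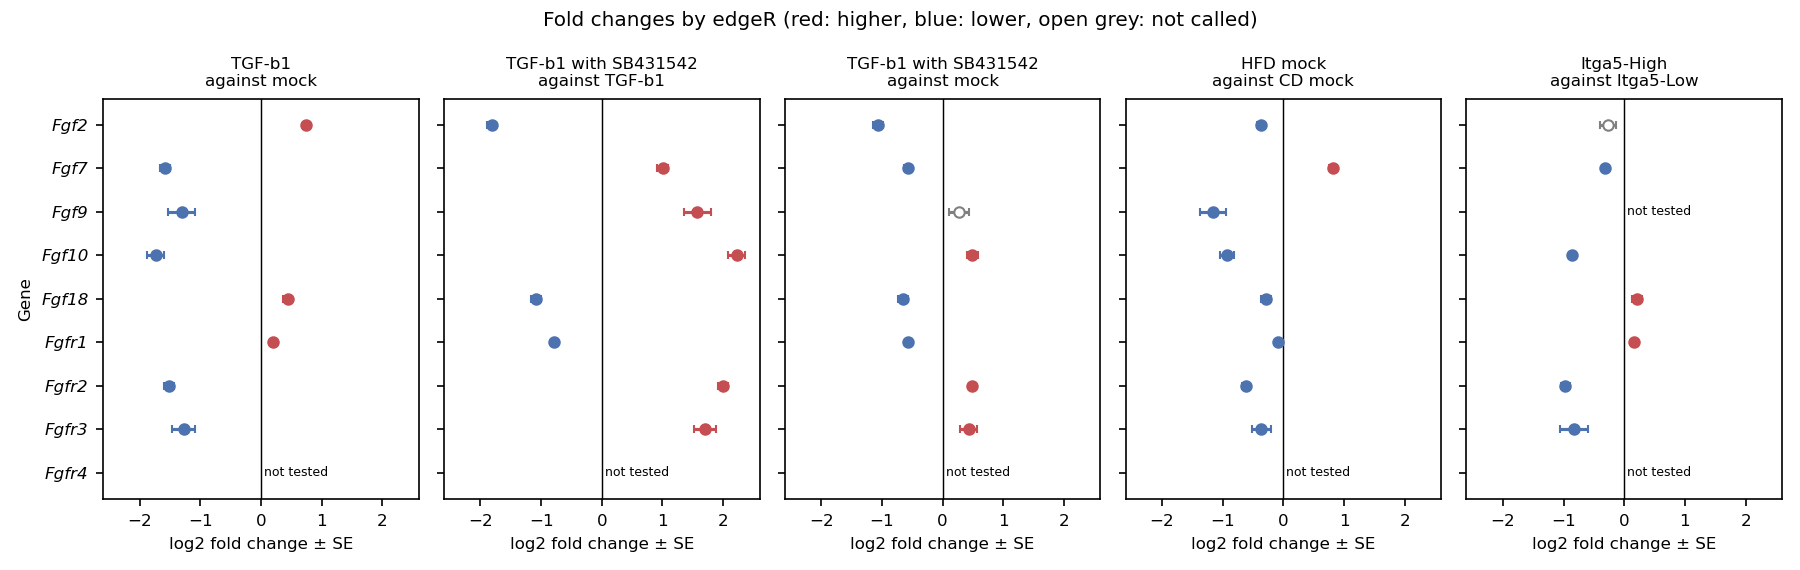
Log2 fold change of each member by edgeR (x axis, bars are the standard error) in the 5 comparisons, with members in rows. Fgf2, Fgf18 and Fgfr1 lie right of 0 under TGF-b1 and left of 0 when SB431542 was added to it, and the other 5 tested members lie on the opposite sides.

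Fgf2, a ligand without a signal peptide that acts on many cell types (chr3:37348653-37404830, plus strand), had 28.7, 27.7 and 30.2 CPM in the CD mock libraries and 49.2, 49.7 and 46.7 with TGF-b1. With TGF-b1 and SB431542 the libraries had 13.3, 13.2 and 14.9 CPM, and in HFD mock 21.6, 23.2 and 22.5. The TGF-b1 libraries were the highest of the 12 and those with the inhibitor the lowest, and no 2 groups overlapped. Fgf2 was thus 1.68-fold higher with TGF-b1 than mock (log2 0.75 ± 0.058 SE, adjusted p = 5.92e-16 by edgeR). It was 3.52-fold lower with the inhibitor than with TGF-b1 alone (log2 -1.81 ± 0.072, adjusted p = 8.88e-28) and 2.10-fold lower than mock (-1.07 ± 0.077, adjusted p = 3.32e-17). HFD cells had 1.29-fold less than CD cells (-0.37 ± 0.067, adjusted p = 4.25e-06). Differentiated cells had the lowest levels, with 5.58, 5.22 and 4.80 CPM in Itga5-High and 6.44, 6.61 and 5.89 in Itga5-Low. That difference did not pass the test although the libraries did not overlap (log2 -0.27 ± 0.13, adjusted p = 0.0954). The exons of Fgf2 overlap those of Nudt6 on the opposite strand and of Gm43439 on the same strand. Strandedness is not given in the sources used here, so reads from shared bases cannot be told apart. The same holds for Fgf10, Fgfr1 and Fgfr3, whose exons overlap those of Gm16263, Gm16159 and G630022F23Rik on the opposite strand.

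Fgf18, a ligand known from skeletal and lung development (chr11:33116978-33147400, minus strand), took the same order in undifferentiated cells at smaller size. It had 20.2, 23.5 and 21.5 CPM in CD mock, 28.3, 30.9 and 29.7 with TGF-b1, 14.1, 13.1 and 14.8 with TGF-b1 and SB431542, and 18.6, 17 and 17.9 in HFD mock. The TGF-b1 libraries were again highest and those with the inhibitor lowest. The rise with TGF-b1 was 1.36-fold (log2 0.44 ± 0.070, adjusted p = 2.52e-07 by edgeR), and 0.29 on the log2 scale when libraries were scaled by total counts. The inhibitor brought Fgf18 2.12-fold below TGF-b1 alone (-1.09 ± 0.077, adjusted p = 1.72e-17) and 1.57-fold below mock (-0.65 ± 0.081, adjusted p = 1.57e-09). In HFD cells it was 1.22-fold lower than in CD cells (-0.29 ± 0.076, adjusted p = 0.000994). Itga5-High libraries had 14.8, 16.6 and 15.4 CPM and Itga5-Low libraries 13.1, 13.7 and 13.6. This small difference (log2 0.20 ± 0.083, adjusted p = 0.0364) lost its call in 7 of 14 alternatives, among them DESeq2 (adjusted p = 0.114) and the fit without Itga5-High replicate 2 (0.149).

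Fgf7, or keratinocyte growth factor (chr2:126034658-126091185, plus strand), is a product of mesenchymal cells that acts on epithelia. It had 31.8, 32.9 and 31.5 CPM in CD mock, 10.1, 10.1 and 11.8 with TGF-b1, 21.8, 21.2 and 21.7 with TGF-b1 and SB431542, and 57.3, 55.6 and 56.0 in HFD mock. HFD libraries stood highest of the 12 and TGF-b1 libraries lowest, with no overlap anywhere. TGF-b1 lowered Fgf7 2.99-fold (log2 -1.58 ± 0.082, adjusted p = 5.48e-23 by edgeR). Adding the inhibitor brought it 2.0-fold above TGF-b1 alone (1.0 ± 0.086, adjusted p = 2.17e-15), though still 1.49-fold below mock (-0.58 ± 0.065, adjusted p = 4.13e-11). Fgf7 was the 1 member that was higher in HFD than in CD cells, by 1.75-fold (0.81 ± 0.054, adjusted p = 2.16e-18). Differentiated cells had the most, 92.0, 89.0 and 100.6 CPM in Itga5-High and 117.0, 114.7 and 119.9 in Itga5-Low. Itga5-High cells were 1.25-fold lower (-0.32 ± 0.034, adjusted p = 1.77e-09).

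Fgf10 (chr13:118714699-118792573, plus strand), the close relative of Fgf7 that shares its receptor, fell most under TGF-b1 among the members. Its libraries had 13.7, 14.8 and 15.3 CPM in CD mock, 4.01, 5.05 and 4.18 with TGF-b1, 18.8, 20.2 and 22.6 with TGF-b1 and SB431542, and 9.67, 7.11 and 6.13 in HFD mock. In contrast to Fgf7, the inhibitor libraries stood above mock and the HFD libraries below it. The fall with TGF-b1 was 3.33-fold (log2 -1.73 ± 0.14, adjusted p = 4.31e-15 by edgeR). With the inhibitor Fgf10 was 4.66-fold higher than with TGF-b1 alone (2.22 ± 0.14, adjusted p = 2.74e-20) and 1.40-fold higher than mock (0.49 ± 0.092, adjusted p = 2.21e-05). HFD cells had 1.91-fold less than CD cells (-0.93 ± 0.11, adjusted p = 4.23e-09). The highest levels were again in differentiated cells, with 31.6, 31.6 and 31.8 CPM in Itga5-High and 56.5, 55.8 and 60.1 in Itga5-Low. Itga5-High cells were 1.82-fold lower (-0.86 ± 0.051, adjusted p = 4.90e-17).

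Fgf9 (chr14:58072686-58112720, plus strand), a ligand of the IIIc receptor forms, was near the limit of depth in every group. It had 4.31, 3.40 and 4.20 CPM in CD mock (146 counts in all), 1.36, 1.68 and 1.69 with TGF-b1 (60 counts), 4.83, 4.34 and 5.07 with TGF-b1 and SB431542 (192 counts), and 1.56, 1.88 and 1.83 in HFD mock (71 counts). Mock and inhibitor libraries were high, and TGF-b1 and HFD libraries low and overlapping each other. Fgf9 was 2.47-fold lower with TGF-b1 (log2 -1.31 ± 0.22, adjusted p = 1.03e-06 by edgeR) and 2.23-fold lower in HFD than in CD cells (-1.16 ± 0.21, adjusted p = 6.21e-06). It was 2.98-fold higher with the inhibitor than with TGF-b1 alone (1.58 ± 0.22, adjusted p = 3.64e-09), and its difference from mock did not pass (0.27 ± 0.17, adjusted p = 0.163; 0.0462 when scaled by total counts). Like Fgf9, the summed mesothelial, endothelial, epithelial, adipocyte and preadipocyte markers were each lower after TGF-b1 and in HFD cells than in the other 2 groups. The endothelial, adipocyte and preadipocyte sums also stood higher with the inhibitor than in mock, though of the 8 preadipocyte markers 3 were higher and 3 lower. Of the 6 epithelial markers 2 were tested, and 1 was higher and 1 lower with the inhibitor than with TGF-b1 alone. The part of these cell types in the result was not tested. In differentiated cells Fgf9 had 7 counts over the Itga5-High libraries and 31 over the Itga5-Low libraries. A fit without the filter on low counts called it lower in Itga5-High (log2 -1.78, adjusted p = 0.0194 by edgeR). The libraries of these groups overlapped, with 0.331 CPM in Itga5-High replicate 3 and 0.3095 CPM in Itga5-Low replicate 1.

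**Figure D2:**
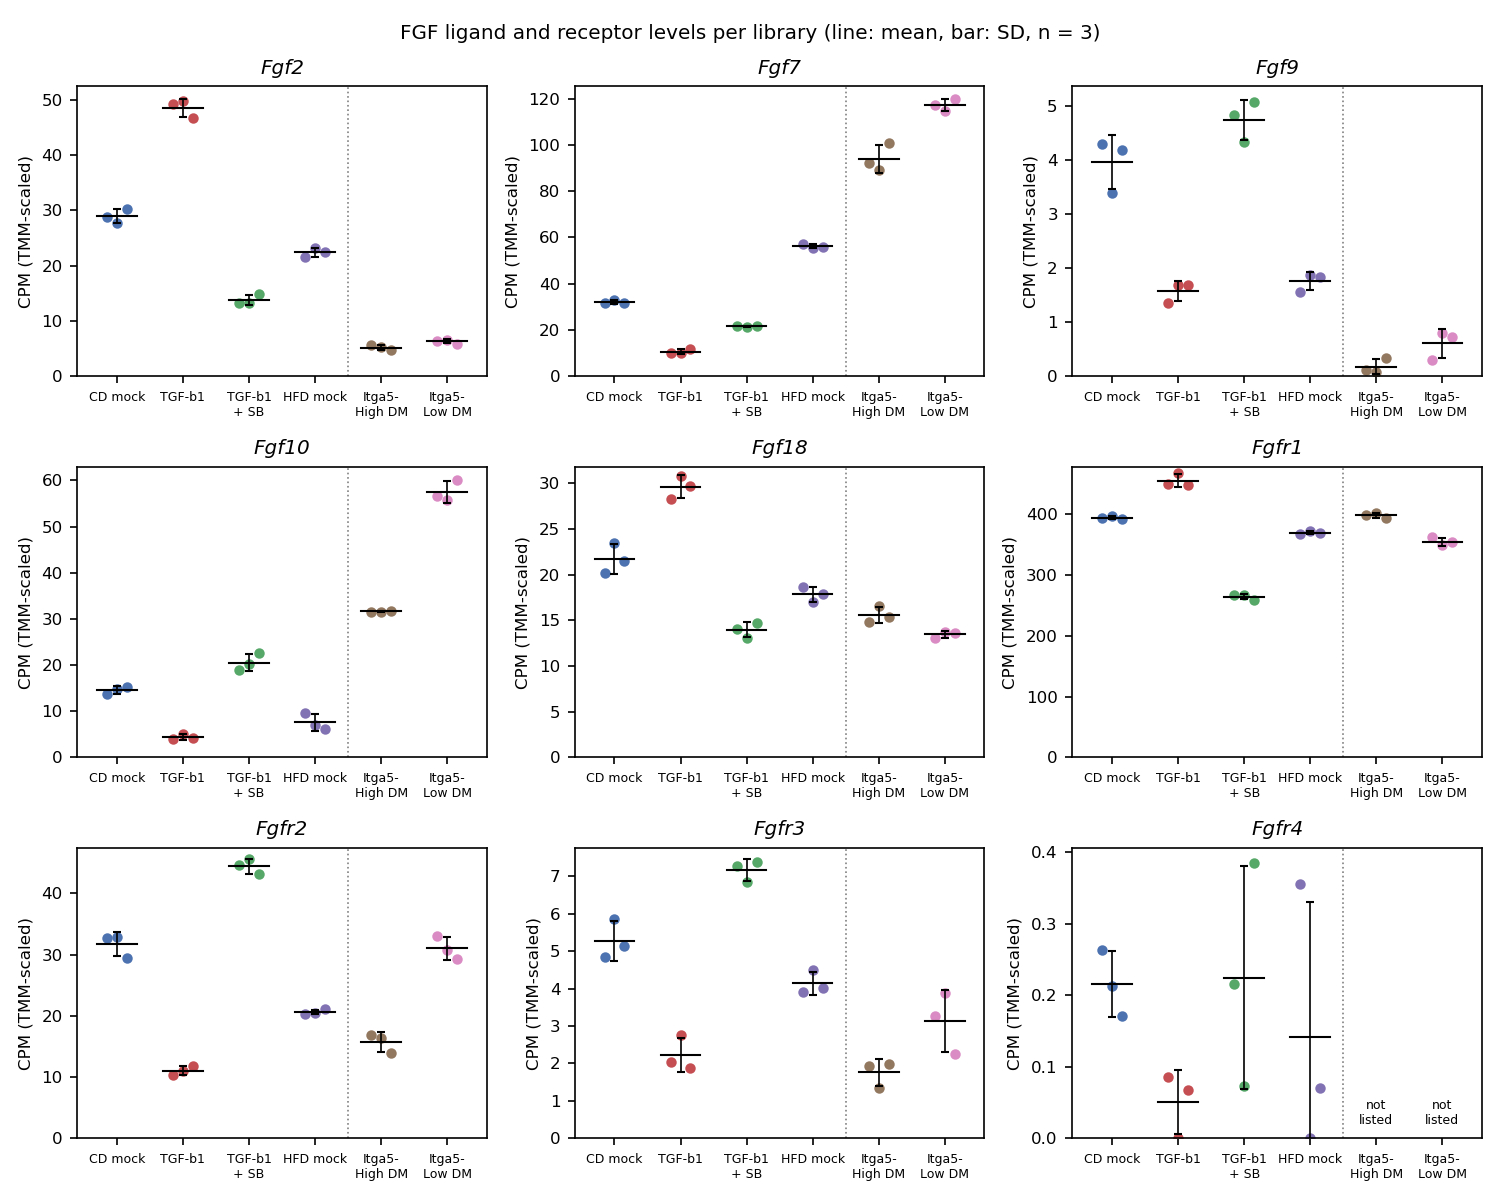
CPM of each of the 9 members (y axes, starting at 0) in every library of the 6 groups (x axis), with the mean as a line and the SD as a bar, n = 3. The dotted line separates the 2 tables, which were scaled apart; Fgf2 stands highest with TGF-b1 at 46.7 to 49.7 CPM, Fgf7 and Fgf10 stand highest in Itga5-Low cells, and Fgfr4 was not listed in differentiated cells.

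Fgfr1 (chr8:25518759-25575718, plus strand), the receptor of mesenchymal cells, had the most counts of all members. It had 394.2, 396.6 and 392.2 CPM in CD mock, 450.2, 467.5 and 447.7 with TGF-b1, 267.4, 267.5 and 259.4 with TGF-b1 and SB431542, and 368.0, 372.0 and 369.4 in HFD mock. The libraries with the inhibitor were lowest by far, and TGF-b1 and HFD libraries lay on either side of mock at small distances. The rise with TGF-b1 was 1.15-fold (log2 0.21 ± 0.018, adjusted p = 8.20e-12 by edgeR), and only 0.06 on the log2 scale when libraries were scaled by total counts. The inhibitor lowered Fgfr1 1.72-fold against TGF-b1 alone (-0.78 ± 0.019, adjusted p = 3.75e-31) and 1.49-fold against mock (-0.57 ± 0.019, adjusted p = 4.83e-25). HFD cells had 1.07-fold less than CD cells (-0.09 ± 0.018, adjusted p = 0.00023), or -0.18 on the log2 scale by total counts. Differentiated libraries had 399.0, 401.8 and 393.6 CPM in Itga5-High and 362.3, 349.4 and 353.9 in Itga5-Low, a 1.12-fold difference (0.17 ± 0.017, adjusted p = 7.55e-08).

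Fgfr2 (chr7:130162451-130266808, minus strand) had 32.7, 32.9 and 29.4 CPM in CD mock, 10.3, 11.0 and 11.9 with TGF-b1, 44.6, 45.5 and 43.1 with TGF-b1 and SB431542, and 20.3, 20.4 and 21.1 in HFD mock. It ran opposite to Fgfr1 under TGF-b1 and under the inhibitor, and the 4 groups did not overlap. TGF-b1 lowered it 2.85-fold (log2 -1.51 ± 0.083, adjusted p = 7.20e-22 by edgeR). With the inhibitor it was 3.99-fold higher than with TGF-b1 alone (1.997 ± 0.079, adjusted p = 4.32e-28) and 1.40-fold higher than mock (0.49 ± 0.057, adjusted p = 1.81e-10). In HFD cells Fgfr2 was 1.54-fold lower than in CD cells (-0.62 ± 0.067, adjusted p = 2.30e-11). Itga5-High libraries had 16.8, 16.4 and 13.9 CPM against 33.1, 30.7 and 29.3 in Itga5-Low, 1.96-fold lower (-0.97 ± 0.074, adjusted p = 1.80e-13). The exons of Fgfr2 overlap those of Ctbp2 on the same strand, and the part of reads from the shared bases was not examined.

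Fgfr3 (chr5:33721724-33737068, plus strand), the receptor known from cartilage growth, followed Fgfr2 at a lower level. It had 4.83, 5.87 and 5.14 CPM in CD mock, 2.05, 2.75 and 1.89 with TGF-b1, 7.28, 6.84 and 7.38 with TGF-b1 and SB431542, and 3.91, 4.49 and 4.02 in HFD mock. TGF-b1 lowered it 2.42-fold (log2 -1.27 ± 0.19, adjusted p = 7.58e-08 by edgeR), and the inhibitor brought it 3.25-fold above TGF-b1 alone (1.70 ± 0.18, adjusted p = 4.38e-12) and 1.35-fold above mock (0.43 ± 0.14, adjusted p = 0.00777). The lower level in HFD cells was at the edge of the test (-0.37 ± 0.16, adjusted p = 0.048) and lost its call in 10 of 21 alternatives, among them DESeq2 (adjusted p = 0.119) and the fit without CD mock replicate 2 (0.22). Itga5-High libraries had 1.94, 1.35 and 1.99 CPM and Itga5-Low libraries 3.28, 3.88 and 2.25, 1.77-fold lower in Itga5-High (-0.82 ± 0.23, adjusted p = 0.00358).

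Fgfr4 (chr13:55152818-55168759, plus strand), a receptor known from liver, was close to undetectable. Over the 3 libraries of a group it had 8 counts in CD mock, 2 with TGF-b1, 9 with TGF-b1 and SB431542 and 6 in HFD mock, and 2 of the 12 libraries had no count. No difference was detectable at this depth.

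Set side by side over both tables, Fgf2 was highest with TGF-b1, followed by CD mock, HFD mock, TGF-b1 with SB431542, Itga5-Low and Itga5-High. Fgf7 ran from Itga5-Low through Itga5-High, HFD mock, CD mock and the inhibitor to TGF-b1, and Fgf10 from Itga5-Low through Itga5-High, the inhibitor, CD mock and HFD mock to TGF-b1. In these 3 genes no neighbours overlapped, and the order was the same with CPM by column total and with TMM factors fitted jointly over both tables. Fgf9 kept its order too, with HFD mock overlapping TGF-b1 and Itga5-Low overlapping Itga5-High. For Fgf18, Fgfr1 and Fgfr2 the place of the differentiated groups among the others changed with the scaling, so no order across the tables is given. Fgfr3 ran from the inhibitor through CD mock, HFD mock, Itga5-Low and TGF-b1 to Itga5-High, and the last 3 neighbours overlapped. With column totals and with joint factors its order was the same, but HFD mock and Itga5-Low overlapped too.

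Divided by transcript length, the level of Fgfr1 in CD mock was 80.1 ± 0.452 CPM per kilobase (SD, n = 3). Fgf2 followed with 41.6 ± 1.81 CPM per kilobase, a value that rests on a model of 695 bases where the GENCODE transcript has 5973 spliced bases. Fgf18 had 14.1 ± 1.03, Fgf7 12.01 ± 0.272, Fgfr2 6.35 ± 0.400, Fgf10 3.20 ± 0.181, Fgfr3 1.31 ± 0.123, Fgf9 0.958 ± 0.120 and Fgfr4 0.0686 ± 0.0147 CPM per kilobase. Fgfr1 was the most abundant member per length in all 6 groups. In Itga5-Low cells Fgf7 was next after it with 43.9 ± 0.981 CPM per kilobase, followed by Fgf10 with 12.6 ± 0.502.

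The share of the short Fgfr1 transcript was compared between groups. The form without the exon of the first Ig-like domain made up 35.2, 36.7 and 36.7% of the Fgfr1 estimated counts in CD mock and 46.0, 46.6 and 42.5% with TGF-b1. With TGF-b1 and SB431542 it made up 43.0, 41.2 and 43.7%, in HFD mock 37.9, 39.9 and 42.9%, in Itga5-High cells 60.5, 65.2 and 59.5%, and in Itga5-Low cells 58.3, 58.8 and 54.8%. CD mock libraries were lowest and overlapped no other group, and only in differentiated cells was the short form the larger part. The share was 8.85 percentage points higher with TGF-b1 than mock, 6.42 higher with both agents than mock, 4.05 higher in HFD than CD cells and 4.47 higher in Itga5-High than Itga5-Low cells. Each of these 4 gave an exact two-sided permutation p of 0.1, the smallest that 3 against 3 allows, and 0.125 after adjustment over 5 comparisons. The change of -2.44 points from TGF-b1 to TGF-b1 with SB431542 overlapped (exact permutation p = 0.3).

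In level, the short form had 142.8 ± 3.43 CPM in CD mock and 205.2 ± 13.8 with TGF-b1 (SD, n = 3), while the long forms together had 251.6 ± 3.51 and 250 ± 7.10. With TGF-b1 and SB431542 the short form had 112.8 ± 2.42 and the long forms 151.9 ± 5.68 CPM, both below mock. An edgeR fit on transcripts, chosen after seeing the data, called 31.0% of all transcripts between TGF-b1 and mock. It called the short form higher (log2 0.52, adjusted p = 1.26e-05), and gave -0.03 (adjusted p = 0.864) and -1e-04 (adjusted p = 1) for the 2 long transcripts. With SB431542 added to TGF-b1, where 44.5% of transcripts were called, all 3 were lower, the short form by -0.85 (adjusted p = 8e-08) and the long ones by -0.72 (5.21e-05) and -0.69 (0.000128). Against mock, with 24% called, the short form was lower by -0.34 (adjusted p = 0.000636) and the long ones by -0.75 (8.29e-05) and -0.69 (0.000275). None of the 3 was called between HFD and CD cells, where 20.8% of transcripts were. Between the sorted groups, with 16.4% called, the short form was higher in Itga5-High (0.27, adjusted p = 0.00874) and neither long form was called. This fit did not test the difference between the forms. How reads shared by the transcripts were divided is not given in the sources used here, and the shares depend on it.

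**Figure D3:**
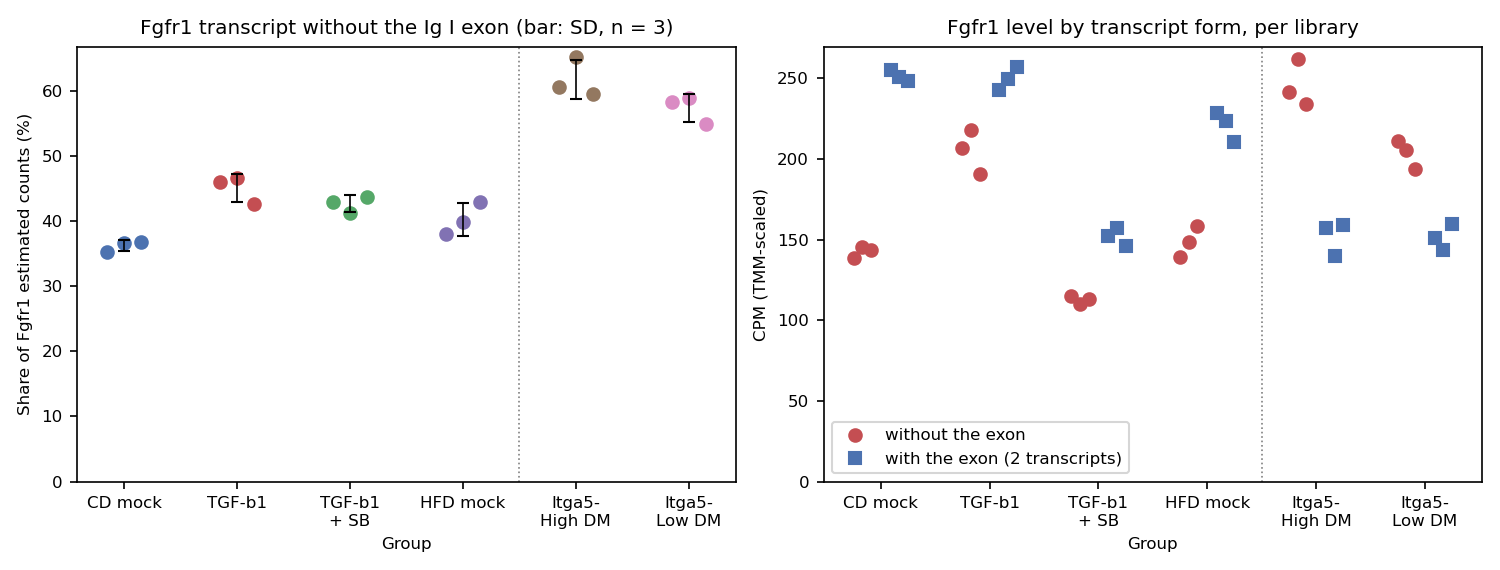
Left, share of Fgfr1 estimated counts in the transcript without the exon of the first Ig-like domain (y axis, %), per library and group, with the SD as a bar around the mean. Right, level of that transcript (circles) and of the 2 transcripts with the exon (squares) in CPM; with TGF-b1 the circles move up from a mean of 142.8 to 205.2 CPM while the squares stay near 250.

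The Fgfr2 forms could not be followed in the same way. The transcript with the IIIb exon took between 1.22% and 26.58% of Fgfr2 counts over the 18 libraries, and within the TGF-b1 group alone 2.0, 3.46 and 26.58%. In every comparison its shares overlapped between the 2 groups. Across the tables, the shares in Itga5-Low cells (20.62, 10.37 and 25.17%) lay above those in HFD mock and in the inhibitor group, which was not tested. The transcript with the IIIc exon took 26.7, 52.7 and 40.7% in CD mock and 28.6, 51.7 and 61.5% with TGF-b1. It took 28.0, 33.3 and 34.5% in Itga5-High and 18.3, 25.6 and 27.2% in Itga5-Low cells. These shares did not overlap, and their difference was not tested. The remaining transcript, not matched to either exon here, took the rest. In the transcript fit of TGF-b1 against mock, the IIIc transcript was lower (log2 -1.25, adjusted p = 0.0189 by edgeR). The unmatched transcript was lower too (-1.79, adjusted p = 0.0208). The IIIb transcript also had a lower estimate there (-1.51, adjusted p = 0.211), but was not called in any comparison. Of the regulators known to choose between these exons, the epithelial factor Esrp2 had 9.04 ± 1.91 CPM in CD mock, 23.03 ± 1.41 with TGF-b1 and 2.19 ± 0.902 with TGF-b1 and SB431542 (SD, n = 3). It was higher with TGF-b1 (log2 1.36 ± 0.11, adjusted p = 2.97e-14) and lower with the inhibitor than mock (-2.02 ± 0.20, adjusted p = 1.32e-12). Of the 4 tested regulators, 2 were higher, 1 lower and 1 not called with TGF-b1, beside 33.4% and 34.2% of all genes. Rbfox2 went from 158.3 ± 2.67 to 141.6 ± 3.23 CPM. Ptbp1 went from 465.7 ± 5.39 to 525.5 ± 4.37 CPM, a call lost with total counts (adjusted p = 0.17). With both agents all 4 were lower than mock, or 2 with total counts, beside 30.4% of all genes. The summed level of 6 epithelial markers, Krt5 being absent, ranged over 119.2 to 129.1 CPM in CD mock, over 63.36 to 67.57 CPM after TGF-b1, over 90.43 to 93.86 CPM with the inhibitor and over 35.78 to 38.92 CPM in HFD mock.

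Among 13 other FGF ligands, 7 were listed in undifferentiated cells and 2 passed the filter on low counts, Fgf1 and Fgf21. Fgf1, which binds all receptor forms, had 56.1 ± 2.10 CPM in CD mock, 7.51 ± 0.779 with TGF-b1, 52.1 ± 0.772 with TGF-b1 and SB431542 and 12 ± 0.505 in HFD mock (SD, n = 3). It was 7.55-fold lower with TGF-b1 (log2 -2.92 ± 0.092, adjusted p = 2.47e-33 by edgeR) and 4.67-fold lower in HFD than in CD cells (-2.22 ± 0.074, adjusted p = 1.04e-30). Its difference between both agents and mock was small (-0.11 ± 0.048, adjusted p = 0.0385) and was lost with total counts (adjusted p = 0.989). Fgf21, a hormone-like ligand of liver and fat, had 13 counts over the CD mock libraries, 92 with TGF-b1, 1 with TGF-b1 and SB431542 and 18 in HFD mock, and was called higher with TGF-b1 (2.77 ± 0.47, adjusted p = 1.02e-08). Its co-receptor Klb had 1 count over the CD mock libraries, 2 with TGF-b1, 41 with TGF-b1 and SB431542 and 2 in HFD mock. Klb was called higher with both agents than in mock (log2 4.81 ± 1.64, adjusted p = 4.33e-07). It had 7.90 ± 0.118 CPM in Itga5-High and 13.8 ± 1.20 in Itga5-Low cells, 1.74-fold lower in Itga5-High (log2 -0.80 ± 0.10, adjusted p = 4.51e-08).

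Of the 9 tested co-receptors, decoys and carriers, 4 were higher and 4 lower with TGF-b1, with a median log2 of 0.26 against -0.02 for all genes, of which 33.4% were called higher and 34.2% lower. Ncam1, an adhesion molecule that binds Fgfr1, was 4.46-fold higher with TGF-b1 (94.8 ± 2.32 to 423.1 ± 2.34 CPM) and had 3.19 ± 0.216 CPM with SB431542 added (SD, n = 3). Flrt3, a membrane protein that binds the receptors, was 3.04-fold higher with TGF-b1 (6.31 ± 0.676 to 19.4 ± 1.52 CPM). Il17rd, an inhibitor of FGF signalling also called Sef, was 1.53-fold lower with TGF-b1 (26.4 ± 2.34 to 17.3 ± 1.43 CPM) and 1.96-fold lower in HFD cells (13.5 ± 0.989 CPM). HFD cells had 1 of the 9 higher and 5 lower, with a median of -0.69 against -0.01 for all genes (27.1% called higher, 26.6% lower); Flrt2 was 2.79-fold lower there (231.7 ± 1.12 to 83.3 ± 3.90 CPM), and the 1 higher call, Fgfrl1, was lost with total counts (adjusted p = 0.418).

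Heparan sulfate carriers and enzymes changed in both directions with TGF-b1. Of 12 tested proteoglycans 4 were higher and 6 lower, with a median log2 of -0.45 against -0.02 for all genes (33.4% called higher, 34.2% lower), and with total counts 4 were higher and 8 lower (median -0.60). Glypicans went opposite ways: Gpc1 rose from 60.1 ± 4.07 to 139.4 ± 2.47 CPM and Gpc4 from 173.1 ± 2.81 to 300.7 ± 3.53, while Gpc3 fell from 38.0 ± 2.92 to 5.79 ± 0.559 (SD, n = 3). With SB431542 added to TGF-b1, Gpc1 had 28.5 ± 0.624, Gpc4 71.9 ± 1.80 and Gpc3 59.0 ± 1.37 CPM. Of 19 tested enzymes of the chain, 7 were higher and 8 lower with TGF-b1, with a median of 0.02, which was -0.13 with total counts. Hs6st2, which adds the 6-O-sulfate that FGF binding uses, had 42.9 ± 1.33 CPM in CD mock, 132.6 ± 4.85 with TGF-b1, 11.0 ± 1.85 with the inhibitor and 94.7 ± 2.14 in HFD mock. Sulf2, which removes such sulfates outside the cell, was 2.03-fold lower in Itga5-High cells (145.8 ± 0.440 CPM) than in Itga5-Low cells (295.6 ± 1.0 CPM). In that comparison 7 of 12 proteoglycans were higher and 4 lower, among them Sdc1 with 352.7 ± 6.75 CPM in Itga5-High and 188.5 ± 1.74 in Itga5-Low, and 4 of 18 enzymes were higher and 6 lower (2 and 7 with total counts), where 27.0% of all genes were called higher and 26.5% lower. In HFD cells 6 proteoglycans were higher and 4 lower than in CD cells (6 and 5 with total counts). Sdc3 made the largest rise among them, from 70.4 ± 1.46 to 175.4 ± 4.33 CPM. Of the enzymes, 8 were higher and 5 lower there, where 27.1% of all genes were called higher and 26.6% lower. These shares of all genes are those with TMM scaling. With total counts, 31.4% of all called genes were higher with TGF-b1, 33.7% in HFD cells and 41.7% in Itga5-High cells.

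The adaptors and kinases below the receptors made small changes, and in undifferentiated cells their split differed between TMM scaling and total counts. With TGF-b1, 14 of 22 were higher and 4 lower (median log2 0.14). The split was 14 and 4 with DESeq2 size factors too, 12 and 4 with upper-quartile scaling, and 6 and 7 with total counts (-0.01). With TMM scaling, 33.4% of all genes were called higher and 34.2% lower with TGF-b1. The shares were 41.4% and 38.3% for the inhibitor against TGF-b1, and 30.6% and 30.4% against mock. For HFD they were 27.1% and 26.6%, and between the sorted groups 27.0% and 26.5%. With total counts, 31.4%, 70.0%, 67.7%, 33.7% and 41.7% of all called genes were higher in these comparisons, in the same order. With the inhibitor against TGF-b1 alone 6 were higher and 14 lower (-0.20), and with total counts 9 and 10 (0.05); against mock 5 were higher and 11 lower (-0.10), and with total counts 7 and 6 (0.01). Map2k1, or MEK1, was the largest rise with TGF-b1, from 119.2 ± 1.61 to 209.7 ± 1.67 CPM (SD, n = 3), and Hras rose from 61.8 ± 4.40 to 91.7 ± 4.35. HFD cells had 12 of 22 higher and 3 lower (median 0.11), or 6 and 6 with total counts (0.03). In Itga5-High cells 5 were higher and 13 lower (-0.10), or 4 and 15 with total counts (-0.14). Total counts moved the median log2 of all genes from -0.02 to -0.16 with TGF-b1, and from 0.04 to 0.30 for the inhibitor against TGF-b1.

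Feedback and target genes of FGF and ERK signalling did not move as 1 group. With TGF-b1, 9 of 18 were higher and 8 lower, with a median log2 of 0.08 (-0.07 with total counts), where 33.4% of all genes were called higher and 34.2% lower. The Sprouty inhibitors split: Spry1 had 55.3 ± 2.53 CPM in CD mock and 89.0 ± 0.912 with TGF-b1, while Spry2 had 72.7 ± 4.68 and 30.1 ± 1.61 and Spry4 35.7 ± 0.363 and 20.9 ± 1.95 (SD, n = 3). The same split stood between CD and HFD cells, where Spry1 was 93.8 ± 2.42, Spry2 41.8 ± 1.43 and Spry4 21.3 ± 1.05 CPM. The transcription factors of the Etv family split too, with Etv4 2.06-fold higher under TGF-b1 (14.9 ± 1.89 to 30.6 ± 0.293 CPM) and Etv5 lower (33.3 ± 1.36 to 24.7 ± 1.18 CPM). Ccnd1, the cyclin of the G1 phase, fell from 50.1 ± 2.29 to 16.95 ± 1.68 CPM and stood at 154.7 ± 3.42 with the inhibitor. With the inhibitor against TGF-b1 alone 8 were higher and 9 lower (-0.03), or 10 and 5 with total counts (0.23), beside 41.4% and 38.3% of all genes. Against mock 10 were higher and 5 lower (0.16), or 11 and 3 with total counts (0.27), beside 30.6% and 30.4% of all genes. In HFD cells 6 were higher and 7 lower (-0.04), or 4 and 10 with total counts, beside 27.1% and 26.6% of all genes. The shares of all genes are those with TMM scaling. With total counts, 70.0% of all called genes were higher for the inhibitor against TGF-b1, 67.7% against mock and 33.7% for HFD. In Itga5-High cells 6 were higher and 4 lower (0.06), beside 27.0% and 26.5%. Fosl1, an AP-1 subunit, made the largest change in the last comparison, 47.6 ± 2.17 against 24.2 ± 1.17 CPM.

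**Figure D4:**
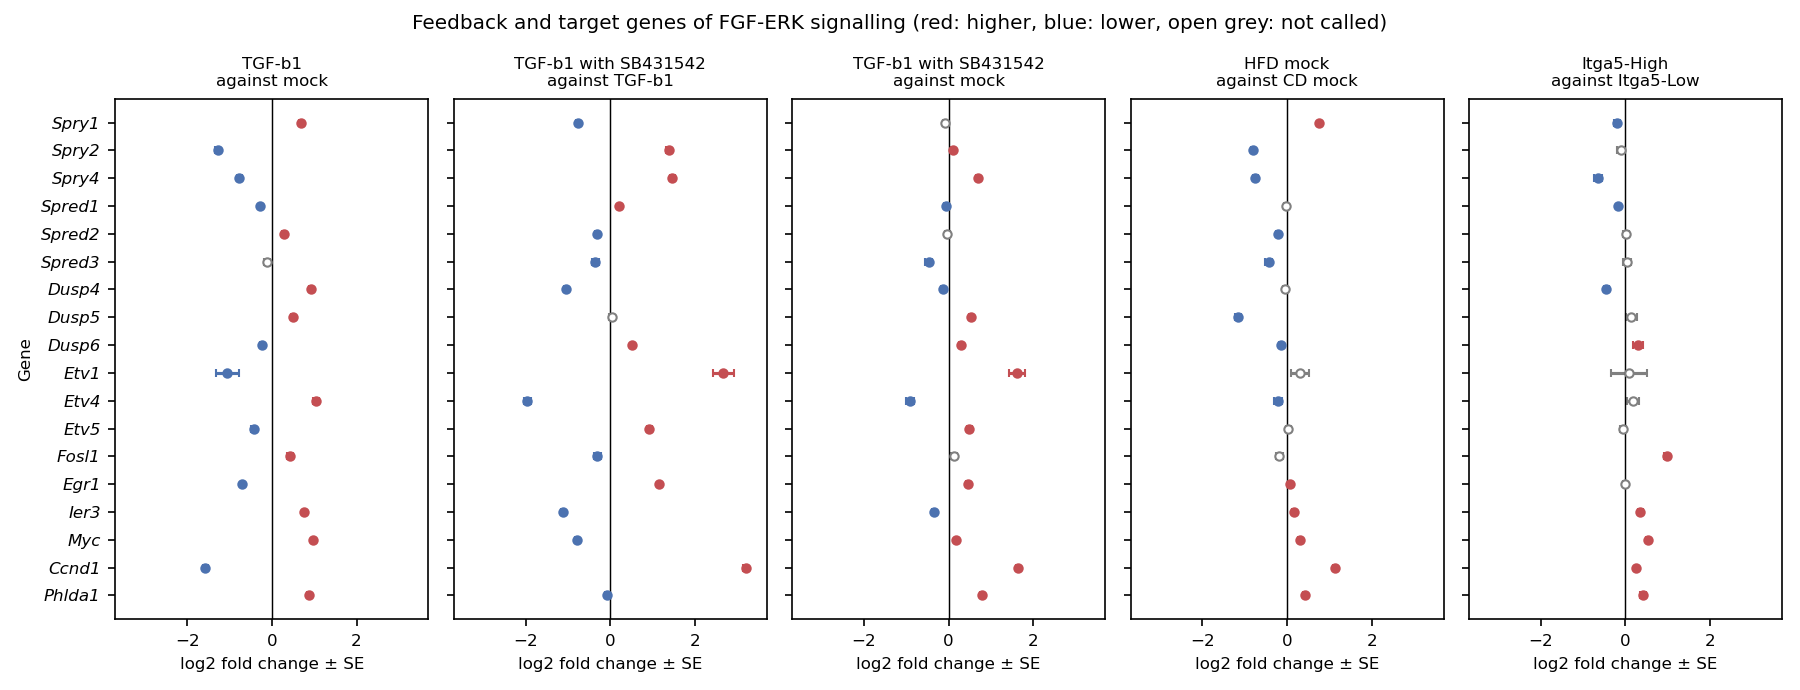
Log2 fold change by edgeR (x axis, bars are the standard error) of the 18 tested feedback and target genes of FGF and ERK signalling (rows) in the 5 comparisons. Under TGF-b1, Spry1 and Etv4 lie right of 0 and Spry2, Spry4 and Ccnd1 left of it.

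Across the 12 undifferentiated libraries, which fall into 4 groups and share their depth and scaling, Fgf2 was most like Emp1 (Pearson r = 0.997 of log2(CPM + 1)), Gnl3 and Cryab, and Fgf18 was its nearest member (0.98). Mycbp2 (0.995) and Mki67 were among the 3 genes most like Fgf7, and its correlation with Fgf10 was 0.283. Zkscan8 and Thsd4 were among the 3 most like Fgf10, and Fgf18 was most like Myo1d (0.988), Mlec and Bhlhe40. Fgfr1 was most like Surf4 (0.997), Ssr1 and Manf. Fgfr2 was most like C3 (0.998), Tmem176b and Mgst1, and Fgfr3 like Abtb1 (0.982), Dapk1 and Mtmr12; Fgfr2 and Fgfr3 were at 0.97 with each other. These coefficients describe patterns over few groups and carry no test.

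The members that fell with TGF-b1 did so beside marker genes of preadipocytes and of other cells. Of the 10 mesothelial markers 9 were lower with TGF-b1 and all 10 in HFD cells, and of the 9 endothelial markers 8 and 9 were lower, where 34.2% and 26.6% of all genes were called lower. Of the 8 preadipocyte markers 7 were lower with TGF-b1 and 6 in HFD cells. Of the 8 pericyte and smooth muscle markers 3 were higher and 5 lower with TGF-b1, while their summed level was higher. Of 13 tested macrophage markers, all were higher in HFD than in CD cells and all were higher with both agents than in mock, where 27.1% and 30.6% of all genes were called higher. The 7 tested adipocyte markers were lower with TGF-b1 and higher with the inhibitor. Their summed levels lay between 1279 and 1307 CPM in CD mock and between 197.7 and 206.7 CPM after TGF-b1. They lay between 3668 and 3708 CPM with the inhibitor and between 876.1 and 887.5 CPM in HFD mock. The groups stood in the same order for this sum, for the preadipocyte sum given above, and for Fgf10, Fgfr2 and Fgfr3. For the preadipocyte list, the place of the inhibitor group above mock held for the sum only. Of its 8 markers 3 were higher, 3 lower and 2 not called with both agents against mock (median log2 0.005). Of all genes, 30.6% were called higher and 30.4% lower there. The share of all genes with this order of groups was not counted. The part of the cells named by these lists in the levels of Fgf9, Fgf10, Fgfr2 and Fgfr3 was not tested. In the differentiated groups the mesothelial sum was 100.9 to 104.0 CPM in Itga5-High cells against 42.25 to 45.16 CPM in Itga5-Low cells, with Msln, Krt8, Krt18 and Muc16 not listed, and the macrophage sum 43.86 to 44.91 and 22.70 to 23.26 CPM. The adipocyte sum was 6748 to 6772 CPM in Itga5-High cells against 7392 to 7435 CPM in Itga5-Low cells. The preadipocyte sum ran the other way, with 2682 to 2721 CPM in Itga5-High and 2453 to 2476 CPM in Itga5-Low cells. By marker, 3 of 8 preadipocyte genes were higher in Itga5-High, 3 lower and 2 not called. Of the 7 tested adipocyte markers, 1 was higher, 5 lower and 1 not called. Only 2 mesothelial and 4 macrophage markers were tested there, of which 1 and 2 were higher and the others not called. Of all genes, 27.0% were called higher and 26.5% lower. Itga5-Low cells had more Fgf7, Fgf10 and Fgfr2, and the part of these cell types in that was not tested.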

How the data were processed

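Poly(A) RNA of mouse primary preadipocytes was sequenced in 18 libraries of 6 groups. Per the submitters' processing notes, fastp, STAR, featureCounts and mm10 were used. The sources used here do not give their versions, the strandedness or how shared reads were split among transcripts. The authors deposited these values as estimated counts (expected counts) per RefSeq transcript, unscaled, in a table of 12 libraries of undifferentiated cells and one of 6 libraries of differentiated cells.

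Values were summed per gene symbol (17001 and 15482 symbols) and rounded, in Python 3.11.15 (pandas 2.3.3, numpy 2.4.6). Each table was fitted separately in R 4.3.3 with edgeR 4.0.16: TMM scaling, filterByExpr (14078 and 13468 genes left), quasi-likelihood test, Benjamini-Hochberg adjustment over all genes tested, and a call at an adjusted p under 0.05. For standard errors the dispersion was floored at 1e-04, which 3780 and 1746 genes lay below. Depth of 11154449 to 17288608 counts limits precision for Fgfr4, Fgf9 and Fgfr3. Transcript shares were tested by exact two-sided permutation. Other scalings, no filter, limma voom (limma 3.58.1), DESeq2 1.42.0, left-out replicates and a replicate block were tried. Scripts were tested on simulated data.

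The members and lists were chosen with earlier results of these data known. Named genes were all members and, per list, up to 2 called genes of largest rise and 2 of largest fall with at least 5 CPM and no overlap between libraries; other genes named (Fgf21, Klb, Spry4, Etv5, and genes at groups outside their rule) were chosen after their values were seen. For likeness, the 3 genes of highest correlation were named, except some that are not reported here. Figures were drawn with matplotlib 3.10.9.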

Additional observations from a re-analysis of the deposited data

How the results depend on the processing

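Of 770 recomputed fold changes of members, 752 kept their direction and their side of the threshold, 17 lost their call, 1 gained it and 0 changed direction. The losses were those of Fgfr3 between HFD and CD cells (10 of 21 alternatives, adjusted p of 0.0504 to 0.22) and of Fgf18 between the sorted groups (7 of 14, 0.0522 to 0.149), and the gain was that of Fgf9 with both agents against mock under total counts (log2 0.38). Numbers of genes and of members called stayed within 1.5 times in every alternative. Scaling by total counts moved the share of higher calls among all called genes from 49.4% to 31.4% for TGF-b1 against mock, from 52.0% to 70.0% for the inhibitor against TGF-b1, from 50.1% to 67.7% for the inhibitor against mock, and from 50.5% to 33.7% for HFD against CD; the direction of no tested member changed with it. Deviations of same-numbered libraries from their group means had correlations between -0.055 and 0.023. Replicates lay close to counting noise, so these values cannot decide whether replicate numbers pair the libraries. With the replicate block, the numbers of genes called were 9472, 11190, 8539, 7533 and 7063 in the order of the report, and the same members were called except Fgfr3 between HFD and CD cells (log2 -0.36, adjusted p = 0.0619). Levels moved by more than 1 SD in 18 cases and by less in 34 with CPM by column total, and in 16 and 32 with joint factors. Without the filter on low counts Fgf9, not tested otherwise in differentiated cells, was called lower in Itga5-High (log2 -1.78, adjusted p = 0.0194), and Fgfr4 was called in none of its 4 comparisons. Depth limits both.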
